A study of Homo sapiens with 39 samples.

Results

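The neutrophil-attracting CXC chemokines were followed in the established human glioblastoma line U87-MG after acute irradiation. The group was taken as CXCL1, CXCL2, CXCL3, CXCL5, CXCL6 and CXCL8 (formerly IL8), 6 of the 20041 genes that the array probes name. The rule that names them uses no measured value, but the group was chosen with earlier results of these data known. The 6 genes are read by 9 probes of the HumanHT-12 v4 bead array, and each gene was represented by its brightest probe on average. Cultures received 8 or 16Gy of gamma rays from a caesium-137 source or were sham irradiated in parallel (0Gy), and RNA was taken on days 1, 4, 6 and 35. There were 3 samples of every dose on days 1, 4 and 6, described as independent experiments, and 4 on day 35. The series description ties these 4 to 3 experiments, while the array methods count 4 experimental replicates, and harvests within 1 day of day 35 were pooled under that name without saying which sample is which. All groups share the same line, medium and serum, and the day 35 cultures were also counted and replated at intervals, at the 3 doses alike. Replicate 1 of days 1, 4 and 6 is an average of 2 technical runs. Values are the deposited log2 signals, normalized separately for the 27 short-term samples and the 12 samples of day 35, so levels were compared only within each of these sets.

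CXC chemokines of this group carry an ELR motif (glutamate, leucine, arginine) ahead of the paired cysteines and draw neutrophils through the receptor CXCR2. CXCL8 and CXCL6 also act through CXCR1. Their genes are classic targets of NF-kB, which IL-1 and TNF switch on, and their mRNAs hold AU-rich elements through which RNA-binding proteins speed decay. Glioblastoma cells are known to secrete CXCL8, which also acts on endothelial cells.

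The 6 genes lie in a stretch of 359 kb on chromosome 4 (GRCh38.p14). From CXCL8 (chr4:73740569-73743716) the order is CXCL6 (chr4:73836678-73838760), CXCL1 (chr4:73869393-73871308), CXCL5 (chr4:73995642-73998677), CXCL3 (chr4:74036589-74038689) and CXCL2 (chr4:74097040-74099195). The first 3 are on the plus strand and the others on the minus strand. The 140 bases just before the annotated start of each gene are printed, from RefSeq's GRCh38.p14 annotation, because all 6 genes share an NF-kB-type sequence there. Each runs 5′ to 3′ on the gene's own strand, and the capitals mark GGAATTTCC.
CXCL8: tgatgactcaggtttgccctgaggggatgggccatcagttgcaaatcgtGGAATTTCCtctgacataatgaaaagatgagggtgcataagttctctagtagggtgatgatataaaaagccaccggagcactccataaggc
CXCL6: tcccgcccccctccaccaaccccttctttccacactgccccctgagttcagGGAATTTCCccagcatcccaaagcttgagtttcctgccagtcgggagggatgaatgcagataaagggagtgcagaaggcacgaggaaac
CXCL1: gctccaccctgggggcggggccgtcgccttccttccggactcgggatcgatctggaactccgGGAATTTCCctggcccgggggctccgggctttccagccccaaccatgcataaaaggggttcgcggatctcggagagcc
CXCL5: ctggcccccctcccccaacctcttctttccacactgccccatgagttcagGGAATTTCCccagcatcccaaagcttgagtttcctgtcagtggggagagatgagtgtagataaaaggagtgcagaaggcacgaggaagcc
CXCL3: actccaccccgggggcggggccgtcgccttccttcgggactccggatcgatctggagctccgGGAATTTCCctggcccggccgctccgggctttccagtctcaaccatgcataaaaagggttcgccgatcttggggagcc
CXCL2: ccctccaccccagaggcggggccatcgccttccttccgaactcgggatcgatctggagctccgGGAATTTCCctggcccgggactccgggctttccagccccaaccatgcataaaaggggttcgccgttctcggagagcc
These stretches are chr4:73740429-73740568 for CXCL8, chr4:73836538-73836677 for CXCL6, chr4:73869253-73869392 for CXCL1, chr4:73998678-73998817 for CXCL5, chr4:74038690-74038829 for CXCL3 and chr4:74099196-74099335 for CXCL2.

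GGAATTTCC was searched on both strands in the 250 bases before the start. It was found in 6 of 6 members, each time once and on the gene's own strand, and in 0.413% of the 35116 promoters of the same length (145 promoters). Its first base lies 91 bases before the start in CXCL8, 89 in CXCL6, 90 in CXCL5, 78 in CXCL1, 78 in CXCL3 and 77 in CXCL2. The AP-1-type sequence TGANTCA, on either strand, was found in 1 of 6 members, CXCL8, and in 6.57% of all promoters, and it does not overlap GGAATTTCC there. Over the 59 bases centred on GGAATTTCC (25 on each side), CXCL5 and CXCL6 were identical at 98.3% of positions, CXCL1 and CXCL3 at 93.2%, and CXCL1 and CXCL2 at 81.4%. CXCL8 was identical to each of the others at 30.5% to 40.7%. The 9 bases of GGAATTTCC count as identical in every pair by construction, and the level that unrelated sequences would reach was not tested. The stretches are printed because all 6 genes hold GGAATTTCC, so its 6 of 6 beside the share of all promoters is not a test. A match is a description of the sequence only. The same 9-base sequence stands before CXCL6, above background in 0 of 39 samples, and CXCL3, above it in 4 of 39, and before the 4 other genes.

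Before any difference between doses, the libraries and the cell type were checked. On day 35 replicate 4 of 16Gy stood apart, with a median correlation of 0.91 with the other day 35 samples over genes, where the others had 0.966 to 0.991, and the members' day 35 values at 16Gy are given with and without it. VIM and CD44, mesenchymal genes of this line, had log2 signals from 13.48 to 14.62 and from 12.88 to 13.96, while GFAP, the astrocyte filament gene, was above background in 0 of 39 samples. NES, FN1 and SPARC, the other genes of this line list, were above it in 39 of 39. Of its 5 tested genes, 1 was called higher (thresholds below) at 16Gy on day 4, where 3.1% of all genes were. On day 6, 1 was called lower at 8Gy and 1 at 16Gy, where 135 and 426 of 11283 genes were. Of 9 leukocyte markers with a probe, 2 to 5 were above background in a sample. FCGR3B was above background in 39 of 39 samples, CD14 in 38, S100A9 in 19 and S100A8 in 15. ITGAM and MPO were so in 2 each, CSF3R and CD3E in 1 each, and PTPRC, the pan-leukocyte phosphatase, in 0 of 39. The summed linear signal of these markers was 1114 to 1153 at 8Gy and 1157 to 1256 at 16Gy on day 4, against 1062 to 1094 at 0Gy. On day 6 it was 1168 to 1188 at 8Gy and 1170 to 1327 at 16Gy, against 1001 to 1084 at 0Gy. S100A9, a calprotectin gene of that list, rose at 16Gy on day 6 (log2 fold change 0.73, adjusted p = 2.1e-05), and the part of this list in the chemokine results was not tested. Of 4 endothelial markers 0 passed the filter on dim genes.

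**Figure D1:**
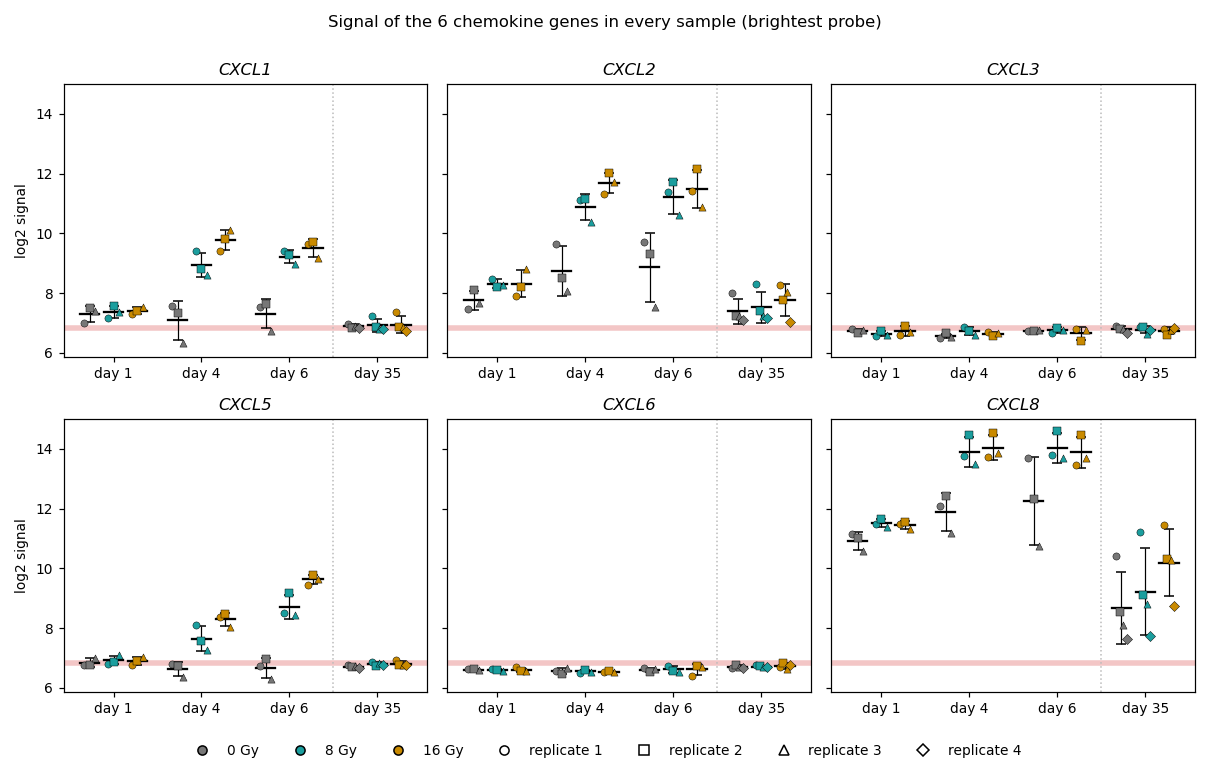
Log2 signal of the 6 genes (vertical axis) in every sample, by day and dose (grey 0Gy, teal 8Gy, amber 16Gy). Point shapes are replicate numbers, thick lines are group means and bars are 1 SD. The red band is the range of the background level (6.78 to 6.90), and the dotted line parts samples that were normalized separately. CXCL1, CXCL2, CXCL5 and CXCL8 were higher in irradiated cultures on days 4 and 6, while CXCL3 and CXCL6 lay at or near the background in all groups.

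Irradiation was followed by a rise of CXCL1, CXCL2, CXCL5 and CXCL8 on days 4 and 6, at 8 and at 16Gy, with fitted log2 fold changes of 1.01 to 2.97. CXCL6 was not above background in any sample, and CXCL3 in 4 of 39, by little. No member passed the test on day 1 or on day 35, with the exception that CXCL8 passed at 16Gy on day 35 once the replicate number was in the fit. To be called, a gene needed a fold change over 1.5 and a p under 0.10 after Benjamini-Hochberg adjustment over 11283 tested genes. Genes were tested where all samples of 1 or more groups exceeded background, and background was the level that a share of 0.05 of 457 probes for olfactory receptor genes exceeded. Of the 6 members 4 passed that filter. CXCL5 passed it only through irradiated groups, so the number that passed is not a result. In cultured cells as a whole, more mRNA in each cell and more cells of a kind that expresses the gene cannot be told apart.

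CXCL8 encodes interleukin-8, the prototype of the group. On day 4 its brighter probe gave log2 signals of 12.07, 12.42 and 11.20 at 0Gy, 13.76, 14.46 and 13.48 at 8Gy, and 13.72, 14.52 and 13.86 at 16Gy (replicates 1 to 3). Each irradiated sample was above each 0Gy sample. Its log2 fold changes were 2.01 at 8Gy (SE, the standard error, of 0.33 and adjusted p = 3.5e-04) and 2.14 at 16Gy (SE 0.33, adjusted p = 4.6e-05), which is 4.02-fold and 4.40-fold by this probe, against 5.82-fold and 6.95-fold by the second. On day 6 the signals were 13.69, 12.31 and 10.74 at 0Gy, 13.79, 14.59 and 13.69 at 8Gy, and 13.46, 14.47 and 13.70 at 16Gy. Here the 0Gy cultures were spread widely, and replicate 1 of 0Gy reached the level of the irradiated samples. The log2 fold change on day 6 was 1.78 at 8Gy (adjusted p = 7.3e-04) and 1.63 at 16Gy (adjusted p = 6.6e-04), and among samples of the same replicate number CXCL8 was higher in 3 of 3 at 8Gy and in 2 of 3 at 16Gy. The labels do not tie these numbers to experiments. These values turn on 0Gy replicate 3: without it they were 1.18 and 1.03, still called, and without 0Gy replicate 1 the value at 16Gy was 2.39.

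The second CXCL8 probe gave a wider difference. On day 6 it read 11.53, 11.29 and 9.29 at 0Gy, 13.20, 13.99 and 12.68 at 8Gy, and 13.89, 14.43 and 13.65 at 16Gy, with no overlap between irradiated and 0Gy samples. Its log2 fold change was 2.59 at 8Gy and 3.29 at 16Gy (adjusted p = 4.8e-07 and 1.5e-09). On day 4 it was 2.54 and 2.80. The brighter probe was at the top of the scale in these cultures: it ranked 1 among 47300 probes in replicate 2 of 8Gy and of 16Gy, on day 4 and on day 6, with signals of 14.46 to 14.59. The highest signal on any short-term array lay between 14.28 and 14.59. The second probe ranked no higher than 2. Whether the ceiling of the array narrowed the difference of the brighter probe was not tested.

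**Figure D2:**
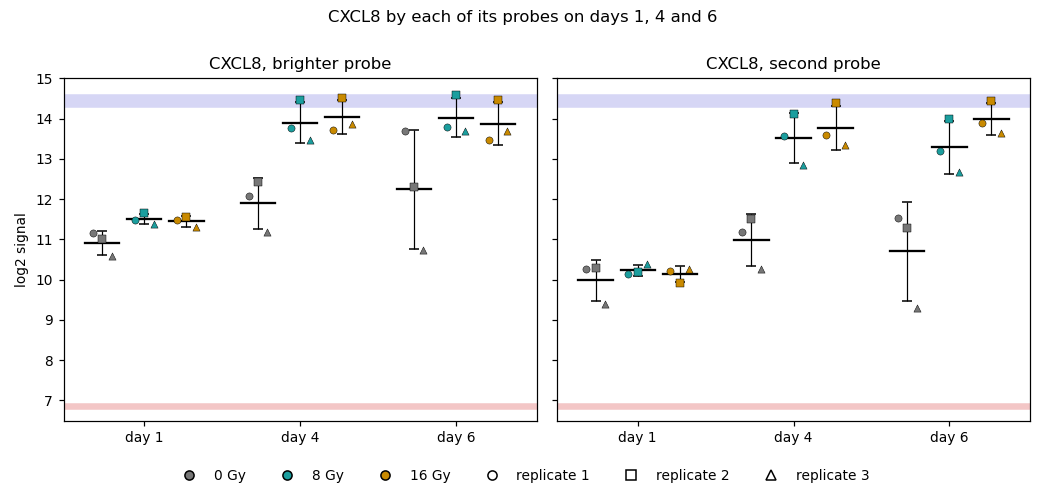
Log2 signal of the 2 CXCL8 probes (vertical axis) on days 1, 4 and 6 at 0, 8 and 16Gy, with means and SD as thick lines and bars. The blue band is the range of the highest signal of the short-term arrays (14.28 to 14.59) and the red band the background. The brighter probe reached the blue band in replicate 2 of 8 and 16Gy on days 4 and 6, and the second probe in replicate 2 of 16Gy, and on day 6 its 0Gy replicate 1 lay among the irradiated samples, which was not so for the second probe.

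CXCL1 (GRO-alpha) had log2 signals on day 4 of 7.56, 7.35 and 6.35 at 0Gy, 9.40, 8.82 and 8.61 at 8Gy, and 9.42, 9.80 and 10.10 at 16Gy. All irradiated samples were above all 0Gy samples, and 0Gy replicate 3 was below background. The log2 fold change was 1.86 at 8Gy (SE 0.23, adjusted p = 7.2e-06) and 2.69 at 16Gy (SE 0.23, adjusted p = 3.2e-09), or 3.62-fold and 6.46-fold, and 3.27-fold and 5.83-fold with the dim 0Gy sample at its background level. On day 6 the signals were 7.53, 7.63 and 6.75 at 0Gy, 9.40, 9.28 and 8.98 at 8Gy, and 9.63, 9.73 and 9.16 at 16Gy. The groups again did not overlap, and 0Gy replicate 3 was again below background. The log2 fold change was 1.92 at 8Gy (adjusted p = 1.3e-06) and 2.20 at 16Gy (adjusted p = 3.1e-08), and 1.89 and 2.17 with that sample at background.

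CXCL2 (GRO-beta) was also higher in irradiated cultures. On day 4 its log2 signals were 9.66, 8.50 and 8.07 at 0Gy, 11.10, 11.14 and 10.38 at 8Gy, and 11.32, 12.01 and 11.74 at 16Gy. Irradiated and 0Gy samples did not overlap. The log2 fold change was 2.13 at 8Gy (SE 0.35, adjusted p = 3.4e-04) and 2.95 at 16Gy (SE 0.35, adjusted p = 6.8e-07), which is 4.39-fold and 7.73-fold. On day 6 the signals were 9.73, 9.31 and 7.55 at 0Gy, 11.38, 11.71 and 10.60 at 8Gy, and 11.42, 12.17 and 10.88 at 16Gy. Replicate 3 was the lowest sample of each dose, and within each number the irradiated samples were the higher ones. The log2 fold change was 2.37 at 8Gy (adjusted p = 3.0e-05) and 2.63 at 16Gy (adjusted p = 2.4e-06).

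CXCL3 (GRO-gamma) is the near copy of CXCL1 and CXCL2. Its probe gave log2 signals between 6.40 and 6.91 and was above background in 4 of 39 samples, which were spread over 4 groups, so it was not tested. Because the transcripts of CXCL1, CXCL2 and CXCL3 are alike over long stretches and the probe sequences were not used here, a share of the signal of 1 of them may come from another. The CXCL3 probe stayed at background in the samples in which the CXCL2 probe reached 12.17.

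CXCL5 (ENA-78), first found in epithelial cells, was at or near background without irradiation. On day 4 its log2 signals were 6.80, 6.74 and 6.35 at 0Gy, 8.09, 7.58 and 7.26 at 8Gy, and 8.37, 8.47 and 8.03 at 16Gy. By this probe none of the 3 samples at 0Gy was above background, so that it gives only limits: at least 1.77-fold higher at 8Gy and at least 2.76-fold higher at 16Gy (adjusted p = 7.4e-04 and 1.7e-07). Each limit sets the dim 0Gy samples at their background level and rests on group means. By the second probe 1 of 3 samples at 0Gy was above background, and the fold was 1.68 at 8Gy and 3.03 at 16Gy, or 1.51 and 2.72 with the dim 0Gy samples at background, so the limit at 8Gy holds for the brighter probe alone. On day 6 the signals were 6.73, 6.96 and 6.29 at 0Gy, 8.50, 9.18 and 8.45 at 8Gy, and 9.46, 9.78 and 9.65 at 16Gy. The 3 doses did not overlap, and 1 of 3 samples at 0Gy was above background. The fitted log2 fold change was 2.05 at 8Gy (SE 0.18, adjusted p = 6.1e-09) and 2.97 at 16Gy (SE 0.18, adjusted p = 6.7e-13), or 4.14-fold and 7.84-fold, and 3.59-fold and 6.79-fold with the dim 0Gy samples at background. The second CXCL5 probe gave log2 fold changes of 1.71 and 2.52 on day 6, and of 0.75 and 1.60 on day 4, all called. Its call at 8Gy on day 4 was lost without 0Gy replicate 1 (adjusted p = 0.20), 0Gy replicate 3 (adjusted p = 0.26) or 8Gy replicate 1 (adjusted p = 0.38).

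CXCL6 (GCP-2), the closest relative of CXCL5, was read by 2 probes and neither was above background in any of 39 samples. Their log2 signals ran from 6.40 to 6.85 and from 6.45 to 6.79. A rise of CXCL6 was thus not detectable on these arrays, which does not show that the gene is silent.

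Counts of members are given beside the share of all genes tested, as a description. The group was chosen with earlier results of these data known, so these counts are not a test. On day 4, 4 of the 4 members tested were called higher at 8Gy, where 1.49% of all genes were, and 4 of 4 at 16Gy, where 3.1% were. On day 6 it was 4 of 4 at 8Gy (2.04% of all genes) and 4 of 4 at 16Gy (4.09%). On day 1 it was 0 of 4 at 8Gy (0.0886%) and 0 of 4 at 16Gy (0.603%). Without CXCL5, which passed the filter only through irradiated groups, each 4 of 4 is 3 of 3. On day 35 it was 0 of 4 at 8Gy (0%) and 0 of 4 at 16Gy (0.00886%), and 1 of 4 at 16Gy with the replicate number in the fit (0.0798%). The median log2 fold change of the 4, CXCL5 included, was 2.41 at 16Gy on day 4 and 2.42 on day 6, where that of all genes was -0.03 on both days. Ordered by log2 fold change at 16Gy on day 4, CXCL2 was number 6, CXCL1 number 8, CXCL8 number 17 and CXCL5 number 37 of 11283. On day 6 CXCL5 was number 7, CXCL2 number 18, CXCL1 number 29 and CXCL8, by its brighter probe, number 70. The place of CXCL8 turns on the probe, since its second probe had 3.29 on day 6, above the 2.97 of CXCL5, and 2.80 on day 4, above the 2.69 of CXCL1. The comparisons at 8 and 16Gy of a day share their 0Gy samples.

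**Figure D3:**
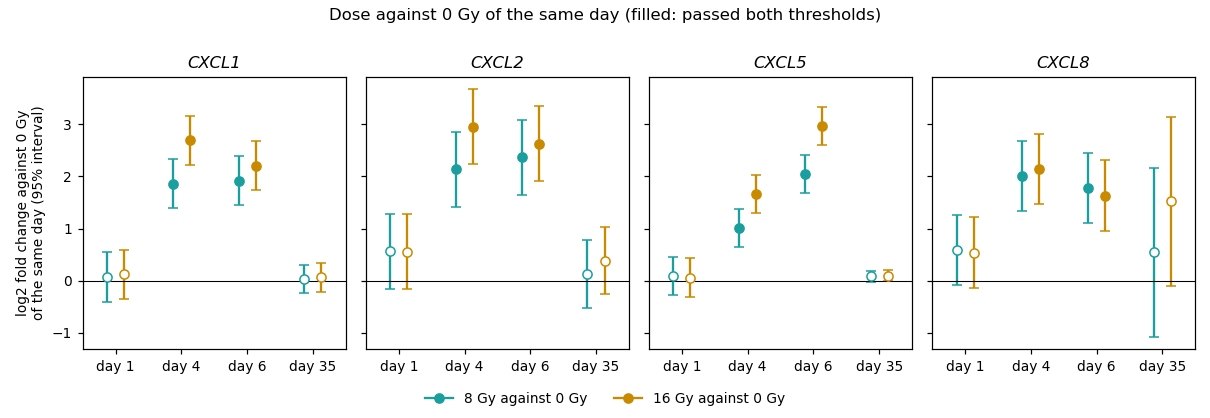
Log2 fold change of the 4 tested members against 0Gy of the same day (vertical axis), at 8Gy (teal) and 16Gy (amber) on the 4 days, with 95% intervals from the main fits. Filled points passed both thresholds. All 16 points of days 4 and 6 are filled, from 1.01 to 2.97, and those of days 1 and 35 are open, with the widest intervals for CXCL8 on day 35.

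On day 1 no member was called. The log2 fold changes of CXCL8 were 0.59 at 8Gy (95% interval -0.09 to 1.27) and 0.54 at 16Gy, and those of CXCL2 were 0.56 at 8Gy (95% interval -0.16 to 1.28) and 0.55 at 16Gy. Their adjusted p lay between 0.45 and 0.65. CXCL1 (0.07 and 0.12) and CXCL5 (0.09 and 0.06) had values near 0 on that day. That day the second CXCL8 probe had 0.25 at 8Gy and 0.16 at 16Gy.

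The change of the dose effect between days was tested directly, as an interaction. Between days 1 and 4 the effect of 16Gy grew by 2.57 log2 units for CXCL1 (adjusted p = 1.6e-05), 2.40 for CXCL2 (adjusted p = 0.0053), 1.60 for CXCL5 (adjusted p = 3.9e-04) and 1.60 for CXCL8 (adjusted p = 0.051). All 4 were called, against 2.29% of all genes. Counts in this paragraph include CXCL5, which passed the filter only through irradiated groups, so they are not results. At 0Gy its brighter probe was above background in 1 of 3 samples on day 1 and on day 6. On day 4 it was so in 0 of 3. The growth values of CXCL5 thus rest on 0Gy samples at or near background. The CXCL8 call was lost without the replicate term (adjusted p = 0.13) and when 0Gy replicate 1 or 16Gy replicate 2 of day 1, or 0Gy replicate 3, 16Gy replicate 2 or 16Gy replicate 3 of day 4, was left out (adjusted p = 0.10 to 0.15). Its second probe gave 2.64 (adjusted p = 3.6e-04) and was called whichever of the 12 samples was left out. At 8Gy the effect of 1 of 4 members was called to have grown, that of CXCL1 by 1.78 (adjusted p = 0.013), against 0.292% of all genes, and this call was lost without 0Gy replicate 3 of day 4 (adjusted p = 0.12). CXCL2 (1.57, adjusted p = 0.25), CXCL8 (1.42, adjusted p = 0.29) and CXCL5 (0.92, adjusted p = 0.14) were not called. CXCL2 was called without 0Gy replicate 1 of day 4 (adjusted p = 0.068). CXCL5 was called without 8Gy replicate 3 of day 1 (adjusted p = 0.068) or of day 4 (adjusted p = 0.0996). The second CXCL8 probe gave 2.29 at 8Gy (adjusted p = 0.012, and 0.13 without the replicate term). The effect of 16Gy on CXCL5 grew by a further 1.31 between days 4 and 6 (adjusted p = 0.066), 1 of 4 members against 0.0443% of all genes. That call was lost with its second probe (0.92, adjusted p = 0.70), without the replicate term (adjusted p = 0.13), and when 0Gy replicate 1 or 2 or 16Gy replicate 2 or 3 of day 4, or 0Gy replicate 1 or 3 or 16Gy replicate 2 or 3 of day 6, was left out (adjusted p = 0.10 to 0.33). CXCL1, CXCL2 and CXCL8 had values of -0.49, -0.32 and -0.51 in that test, and none was called. The second CXCL8 probe had the other sign, 0.49 (adjusted p = 0.87), so the direction for CXCL8 turns on the probe.

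The sham-irradiated cultures were not constant either. At 0Gy, CXCL8 was higher on day 4 than on day 1 by 0.98 log2 units (adjusted p = 0.045) and on day 6 than on day 1 by 1.33 (adjusted p = 0.0048). CXCL2 was higher by 0.98 on day 4 (adjusted p = 0.058) and by 1.10 on day 6 (adjusted p = 0.026). These are 2 of 4 members on each day, where 3.66% of all genes were called higher on day 4 and 4.68% on day 6. Both day 4 calls were lost without the replicate term (adjusted p = 0.11 for CXCL8 and 0.10 for CXCL2). The second CXCL8 probe gave 1.00 on day 4 (adjusted p = 0.021) and 0.72 on day 6 (adjusted p = 0.088). Both calls of that probe were lost without the replicate term (adjusted p = 0.10 and 0.24). CXCL1 and CXCL5 had values between -0.21 and 0.01 in the same comparisons.

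The doses themselves were compared on each day. CXCL5 was the only member called between them: on day 6 it was higher at 16Gy than at 8Gy by 0.92 (SE 0.18, adjusted p = 0.012), 1 of 4 members against 0.301% of all genes. It had passed the filter only through irradiated groups, so this count is not a result. The second CXCL5 probe gave 0.81 (adjusted p = 0.088), which was not called without the replicate term (adjusted p = 0.12) and was called in 2 of 6 fits that each left out 1 sample (adjusted p up to 0.58). With the brighter probe the call was lost without 16Gy replicate 3 (adjusted p = 0.16) or 8Gy replicate 3 (adjusted p = 0.14). On day 4, CXCL1 was higher at 16Gy than at 8Gy by 0.83 (95% interval 0.36 to 1.31), CXCL2 by 0.82 (0.10 to 1.53) and CXCL5 by 0.65 (0.28 to 1.01), but none passed over all genes (adjusted p = 0.46, 0.98 and 0.46). CXCL8 differed between the doses by 0.13 on day 4 (95% interval -0.54 to 0.81) and by -0.15 on day 6 (95% interval -0.82 to 0.53). Its second probe gave 0.70 on day 6 (95% interval 0.10 to 1.30, adjusted p = 0.33).

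Of the 4 tested members CXCL8 had the widest spread on day 35. Its log2 signals were 10.41, 8.55, 8.10 and 7.63 at 0Gy, 11.23, 9.11, 8.80 and 7.75 at 8Gy, and 11.46, 10.33, 10.26 and 8.72 at 16Gy (replicates 1 to 4). The doses overlapped widely, and replicate 1 was the highest and replicate 4 the lowest sample of each dose. Within each number the signal was higher at 8Gy and at 16Gy than at 0Gy, in 4 of 4 pairs each. Without regard to the numbers the log2 fold change at 16Gy was 1.52 (SE 0.75, adjusted p = 0.86), and the two-sided exact permutation test of 4 against 4 samples gave p = 0.11, where the smallest it allows is 0.029. With the replicate number as a term it was 1.52 (SE 0.19, adjusted p = 0.015), and the second probe gave 1.17 (SE 0.13, adjusted p = 0.0091). At 8Gy the value was 0.55 and was called in neither fit. Without the term and with 1 sample left out it ran from -0.12 (without 8Gy replicate 1) to 1.13 (without 0Gy replicate 1), so its direction turns on single samples.

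The day 35 call of CXCL8 was not stable to every sample. Without 16Gy replicate 4, the sample that stood apart, the log2 fold change was 2.01 (adjusted p = 1.00) without the replicate term and 1.59 (adjusted p = 0.0011) with it. With the term it was also called when 0Gy replicate 4, or replicate 1 or 2 of 16Gy, was left out, and was not called without 0Gy replicate 1 (adjusted p = 0.11), 0Gy replicate 2 (adjusted p = 0.16), 0Gy replicate 3 (adjusted p = 0.17) or 16Gy replicate 3 (adjusted p = 0.11). The replicate numbers deviated together on that day, as their mean correlations of 0.28 to 0.71 show, but which of the 4 share an experiment is not given.

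**Figure D4:**
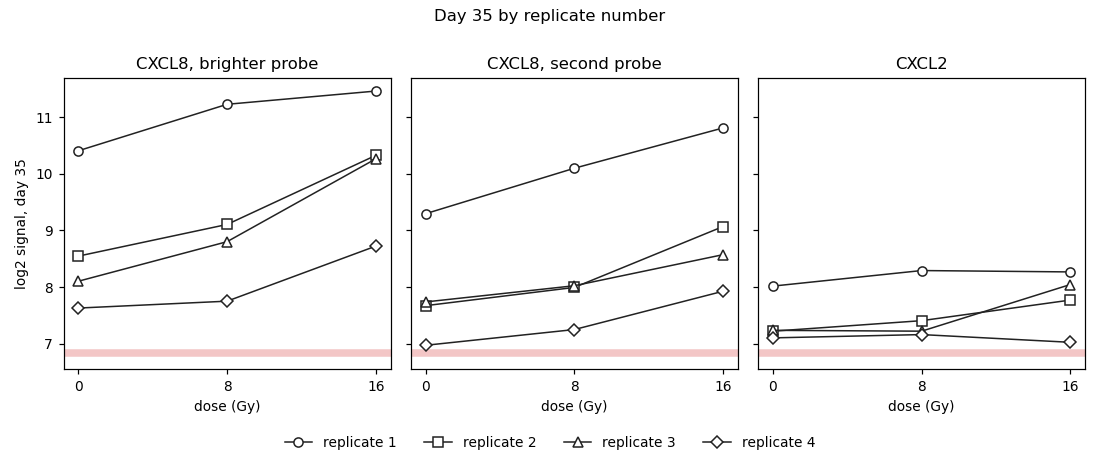
Log2 signal on day 35 (vertical axis) against dose in Gy for both CXCL8 probes and for CXCL2, with a line joining the samples of the same replicate number, and the background range as a red band. For CXCL8 each line was higher at 16Gy than at 0Gy, by 1.05 to 2.16 for the brighter probe and by 0.83 to 1.51 for the second, and the lines did not cross between replicates 1 and 4.

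The other members were low on day 35. CXCL2 had 8.02, 7.22, 7.24 and 7.10 at 0Gy, 8.29, 7.41, 7.22 and 7.16 at 8Gy, and 8.27, 7.77, 8.05 and 7.03 at 16Gy, with overlapping doses. Its log2 fold change at 16Gy was 0.38 (95% interval -0.26 to 1.03, two-sided exact permutation p = 0.34). Leaving out 16Gy replicate 4 gave 0.63, leaving out 0Gy replicate 1 gave 0.59 and leaving out 16Gy replicate 1 gave 0.22, none of them called. CXCL1 lay between 6.72 and 7.35 in the 12 samples, with a log2 fold change of 0.06 at 16Gy (95% interval -0.21 to 0.33), 0.14 without 16Gy replicate 4 and -0.07 without 16Gy replicate 1. CXCL5 lay between 6.67 and 6.93 and was above background in 2 of 12 samples. At 16Gy its value was 0.10 without 16Gy replicate 4 and 0.09 with all samples (exact permutation p = 0.029, two-sided, the smallest that 4 against 4 allows), a difference below the level at which the probe was above background, and its second probe gave 0.15 (exact permutation p = 0.26). There were 18 such exact tests over the 9 probes and 2 doses, and their p-values are not adjusted for that number.

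Genes that act on this group were read from lists. Of 15 tested inducers and transcription factors, 6 were called higher at 8Gy and 10 at 16Gy on day 4, and 6 at each dose on day 6, where 1.49%, 3.1%, 2.04% and 4.09% of all genes were. Among the 15, TNF was above background in 10 of 39 samples, FOS in 22 and IL1A in 33. Such genes can have passed the filter through some groups only, so these counts are not a test. IL1B, which encodes a main inducer of these chemokines, had a mean log2 signal of 14.08 ± 0.29 at 16Gy and 10.72 ± 0.65 at 0Gy on day 6 (SD, n = 3 each), a log2 fold change of 3.36 (adjusted p = 6.1e-12). Its highest signal, 14.36, lay in the range of the highest signals of the short-term arrays, as for CXCL8. On day 1 it was the only gene of the list called, at 16Gy (0.79, adjusted p = 0.068). IL1A, the other interleukin-1 agonist, had 2.08 at 16Gy on day 4. NFKBIZ, a nuclear NF-kB partner, had 1.90 at 16Gy on day 4 and 1.38 on day 6. The NF-kB inhibitors TNFAIP3 (1.18) and NFKBIA (0.70) and the C/EBP factor CEBPD (1.18) were also called at 16Gy on day 4. Of the NF-kB subunits, NFKB1 (0.61) and RELB (0.63) were called at 16Gy on day 4, while NFKB2 and RELA were not called in any of the 8 comparisons with 0Gy. TNF was called at 16Gy on day 4 (0.67) from a level near background. The AP-1 genes JUN (0.87) and FOSL1 (0.86) were called at 16Gy on day 6. On day 35, 0 of 15 were called at either dose.

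Of 9 RNA-binding regulators of AU-rich mRNAs, all tested, 1 was called: ZC3H12A, the endonuclease regnase-1, which degrades cytokine mRNAs. Its log2 fold change was 1.09 at 8Gy and 1.32 at 16Gy on day 4, and 1.05 and 1.13 on day 6. ZFP36 (tristetraprolin) and ELAVL1 (HuR) were not called in any of the 8 comparisons. None of 8 receptors of CXC chemokines passed the filter on dim genes: CXCR1 was above background in 3 of 39 samples and CXCR2 in 14 of 39, at log2 signals up to 7.05.

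Other CXC chemokines were mostly not detected. Of 11, CXCL14 and PPBP were tested, and PPBP, which encodes the platelet chemokine NAP-2 and lies in the same cluster, rose at 16Gy on day 6 (log2 fold change 0.85, adjusted p = 1.6e-04). The interferon-induced CXCL9, CXCL10 and CXCL11 were above background in 0, 11 and 1 of 39 samples, at log2 signals up to 6.95. Of the cluster's 10 neighbours, 7 had a probe and 4 were tested. Besides PPBP, EREG, which encodes the EGF receptor ligand epiregulin, rose in the 4 comparisons of days 4 and 6, with log2 fold changes of 0.91 at both doses on day 4, and of 0.61 at 8Gy and 1.40 at 16Gy on day 6.

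**Figure D5:**
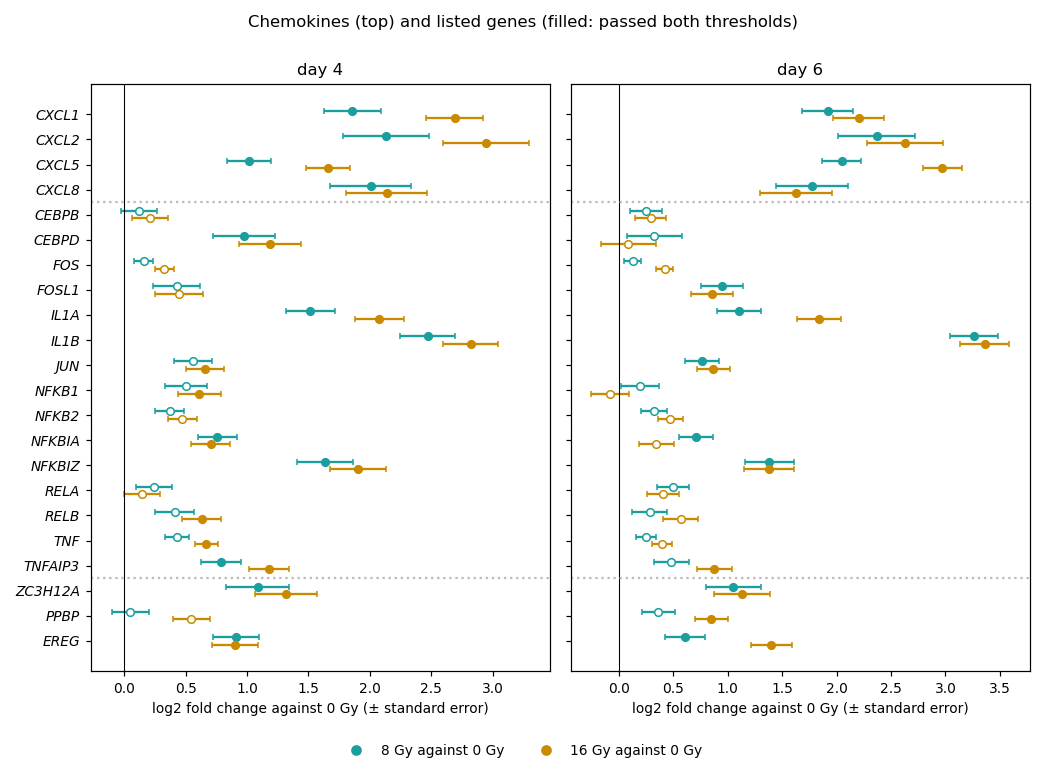
Log2 fold change against 0Gy of the same day (horizontal axis, ± standard error) on days 4 and 6 at 8Gy (teal) and 16Gy (amber). The 4 tested members stand at the top, the 15 tested inducers and transcription factors in the middle, and ZC3H12A, PPBP and EREG at the bottom. Filled points passed both thresholds. IL1B, IL1A and NFKBIZ are filled in all 4 comparisons, and IL1B reaches 3.36 at 16Gy on day 6.

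The members' profiles were set beside those of all other tested genes over the 27 short-term samples, which share arrays, doses and days, so the correlations are descriptions. Closest to CXCL1 were CCL20 (Pearson r = 0.98), CCL5 (0.96) and LIF (0.95). Closest to CXCL2 were IL6 (0.98), PTGS2 (0.97) and NFKBIZ (0.97). Closest to CXCL5 were ACP7 (0.96), IL24 (0.96) and CCL3L1 (0.95), and to CXCL8 SLC25A24 (0.97), IL6 (0.97) and DCN (0.97). Over the 12 samples of day 35 IL6 had r = 0.97 with CXCL2 and 0.96 with CXCL8, while CCL5 had -0.26 with CXCL1 and CCL3L1 -0.15 with CXCL5. Among the members, CXCL2 was closest to CXCL8 (0.95) and to CXCL1 (0.95), and CXCL5 and CXCL8 were the least alike (0.78). The 2 CXCL8 probes had r = 0.96 with each other and the 2 CXCL5 probes 0.95.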

How the data were processed

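RNA of 39 samples was measured on HumanHT-12 v4 bead arrays. The authors exported signals with GenomeStudio, then quantile normalized them and took log2, with short-term and day 35 arrays handled apart, and passed the short-term arrays through ComBat, with batches not given in the sources used here. The deposited log2 signals of 47300 probes were used as they stand. ComBat may have narrowed the spread between replicates, so short-term p-values may be too small. A further table of unnormalized signals holds 48 arrays whose names match no sample label, and its 96 columns were not used. The deposited values carry no counts, and the number of arrays limits the precision. Standard errors of log2 fold changes had a median of 0.14 in the short-term fit and 0.15 in that of day 35.

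Probes were named by the platform annotation (30100 with 1 gene, 8 with several and 17192 with none), with symbols updated through RefSeq gene numbers. Detection p-values are in the unassigned table only, so the filter on olfactory receptor probes took their place after the values were seen. It assumes that these cells do not transcribe such genes. A planned floor at a signal of 16 (log2 of 4) changed nothing, since the smallest value is 5.92. Tests used limma 3.58.1 in R 4.3.3 with a mean-variance trend: all 27 short-term samples with group and replicate number, and the 12 day 35 samples with group only. The 27 short-term samples share 1 estimate of each gene's spread, so a p-value does not measure the spread of its own day. Adjusted p-values are limma's, over 11283 genes, unless an exact test is named. Scripts were tested on simulated data. The labels state that sham controls ran in parallel with each experiment but not that the numbers follow experiments. Deviations of samples of the same number from their group means correlated at 0.09 to 0.29 on day 1, -0.13 to 0.12 on day 4, 0.19 to 0.39 on day 6 and 0.28 to 0.71 on day 35. On day 35 all 4 numbers correlated above 0.1, and the fit with the number is given beside the planned fit without it. The short-term fit kept the number as planned, although correlations on days 1 and 4 did not all reach 0.1, so its samples are not shown to be pairs. The fit without the number is given wherever it changes a call of a member.

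The 6 members are always named. Genes of the other lists are named where they were called in at least 1 of the 8 comparisons with 0Gy, and some uncalled genes are named with their detection only. The calls of the line list are given as counts, without the names of the genes called. For each tested member the 3 genes most like it are named. NFKB2, RELA, ZFP36 and ELAVL1 were added to the names after their values were seen. The members and lists were chosen with earlier results of these data known. Alternatives were the other replicate setting, each day alone, each sample left out, the second or mean probe, array weights, other filters, no trend, joint normalization and the one-way analysis of variance of the study's methods. Promoter sequences are RefSeq's (GRCh38.p14), and 6 of 6 members matched by symbol.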

Additional observations from a re-analysis of the deposited data

Results flagged for a closer look

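In 2 of the 27 sets of 4 day 35 samples, 1 sample lay far from the other 3, about as many as chance gives at 1 in 20. CXCL2 at 0Gy had a gap of 0.854 of the group's range, with replicate 1 at 8.02 and the others at 7.10 to 7.24. The CXCL8 signal of that sample was the highest of its dose as well. CXCL5 at 16Gy had a gap of 0.909, with replicate 1 at 6.93 and the others at 6.76 to 6.78, around the background.

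The dose effect of several members differed between days by a test of the difference. Between days 1 and 4 the effect of 16Gy grew by 2.57 for CXCL1, 2.4 for CXCL2, 1.6 for CXCL5 and 1.6 for CXCL8 on the log2 scale, and that of 8Gy by 1.78 for CXCL1. Between days 4 and 6 the effect of 16Gy on CXCL5 grew by 1.31. The CXCL8 value, the CXCL1 value at 8Gy and the last CXCL5 value lost their calls when single samples were left out.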

How the results depend on the processing

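The counts of members called higher were 4 on days 4 and 6 and 0 on days 1 and 35, and they were the same under 136 of 142 alternatives, leaving out each sample (4 to 4 and 0 to 0) included. At 16Gy on day 35 the count was 1 in place of 0, CXCL8 each time, with the replicate block, with the second probe and the replicate block, and by the one-way analysis of variance with either adjustment. At 8Gy on day 1 the count was 1, again CXCL8, by the analysis of variance with either adjustment, a test that asks whether any of the 12 groups differ. Of 940 log2 fold changes of members under alternatives, 908 kept their status, uncalled values that stayed so included, 21 lost a call, 11 gained it and 0 called values changed sign. Fits that left out samples with the second probe or the replicate block are not among the 940. In those, the second CXCL5 probe was called in 3 of 6 at 8Gy on day 4. It was called in 2 of 6 between doses on day 6, and in 0 of 12 for the growth at 16Gy from day 4 to 6. The second CXCL8 probe was called in 12 of 12 for the growth at 8Gy from day 1 to 4. With the block, CXCL8 at 16Gy on day 35 was called in 4 of 8. The fit without the replicate block changed no call of a member against 0Gy on days 1, 4 and 6. With the brighter probes it lost 4 calls in tests between days: the growth of the 16Gy effect on CXCL8 from day 1 to 4 and on CXCL5 from day 4 to 6 (adjusted p = 0.13 each), and the day 4 rise of CXCL2 and CXCL8 at 0Gy.

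Over all genes, counts of calls moved by over 1.5 times in these places. On the adjusted p alone 354 genes passed in place of 138 at 16Gy on day 1, 1649 in place of 527 on day 4 and 2770 in place of 888 on day 6, and at 8Gy 348 in place of 202 on day 4 and 1053 in place of 365 on day 6. The analysis of variance with Bonferroni-Holm adjustment gave 64, 244 and 329 at 16Gy on those days and 185 at 8Gy on day 6. At 8Gy on day 1 the 15 calls became 6 to 62 over the alternatives other than leaving out samples, at 16Gy on day 35 the 1 call became 0 to 68, and at 8Gy on day 35 the analysis of variance gave 5 and 6 in place of 0. Leaving out 1 sample gave 0 to 72 calls at 8Gy on day 1, 55 to 226 at 16Gy on day 1 and 0 to 2 at 16Gy on day 35. The replicate block with samples left out, the second probe with the block or with samples left out, and the second probe in tests between days or doses were chosen after seeing the data. Arrays limit what can be said of CXCL3 and CXCL6, which lay at or near background.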
